A study of Rattus norvegicus with 4 samples.

Results

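Chemokines that attract neutrophils, monocytes and lymphocytes were followed in rat kidneys perfused ex vivo as a model of donation after cardiac death. The 10 genes were Cxcl1, Cxcl2, Cxcl10, Cxcl12, Cxcl16, Ccl2, Ccl3, Ccl4, Ccl7 and Ccl20. They were taken by symbol from the array annotation, out of 14217 genes with a probe set. A floor was set at 4.51 on the log2 scale, the median of all values in the table, and lower values count as not detected. Of the 10 chemokines, 9 were above the floor on at least 1 array, as were 9393 of the 14217 genes, and Ccl7 was below it on all 4 arrays.

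All kidneys came from male Wistar rats of 300 to 480 g, stayed in the body for 29 min of warm ischaemia and then had 3 h of machine perfusion with a cold organ preservation fluid, University of Wisconsin solution. The heparin group had low molecular weight heparin at 10 IU/ml in the cold perfusate and in the warm one that followed for 30 min, an oxygenated salt solution (modified Krebs-Henseleit buffer). The PPS group had PPS, given in the labels by this abbreviation only, at 10 IU/ml in both perfusates. The warm group had the same 2 perfusions with no supplement, and the cold group had the cold perfusion alone. Each group is 1 array hybridised with an equimolar RNA pool of 3 kidneys, so the spread between replicates is not known and no difference below has a p-value. The pools hold RNA of the whole kidney, in which fewer cells of a type and less RNA per cell cannot be told apart.

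Chemokines are small secreted proteins that guide leukocytes along a gradient through G protein-coupled receptors. They also bind heparin and the heparan sulfate chains of the vessel wall, which hold them in place. In injured kidney, tubular, endothelial and resident immune cells can make them. CXC chemokines such as Cxcl1 and Cxcl2 act on neutrophils through Cxcr2, CC chemokines such as Ccl2 act on monocytes through Ccr2, and Cxcl12 is made without a stimulus in many tissues. Many inducible chemokine genes are known targets of NF-kappaB, a transcription factor activated by inflammatory signals.

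Promoters of 7 of the 10 chemokines were in the RefSeq table of the rat assembly GRCr8, as windows from 250 bases before to 50 bases after the annotated start. The 4 shown first belong to genes with large differences on the warm array, and the 2 shown last to genes that, as deposited, differed by less than 2-fold in every comparison. Capitals mark matches to 4 motifs, searched on both strands: the NF-kappaB consensus of 10 letters, TGANTCA for AP-1, the interferon-stimulated response element (ISRE) core of 10 letters, and TATAAA.
Cxcl1 (chr14:17479272-17479571, - strand): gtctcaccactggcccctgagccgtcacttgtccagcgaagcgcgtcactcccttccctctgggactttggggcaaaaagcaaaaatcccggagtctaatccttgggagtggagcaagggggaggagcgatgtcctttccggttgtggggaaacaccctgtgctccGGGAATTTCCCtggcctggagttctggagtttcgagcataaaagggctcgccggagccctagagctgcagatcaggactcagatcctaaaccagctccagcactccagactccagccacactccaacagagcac
Cxcl2 (chr14:17467206-17467505, - strand): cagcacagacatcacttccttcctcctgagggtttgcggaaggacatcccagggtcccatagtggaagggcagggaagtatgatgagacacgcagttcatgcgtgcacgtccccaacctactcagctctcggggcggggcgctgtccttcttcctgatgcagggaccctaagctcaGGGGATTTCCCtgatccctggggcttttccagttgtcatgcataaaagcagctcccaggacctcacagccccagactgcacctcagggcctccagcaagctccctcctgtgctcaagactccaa
Cxcl10 (chr14:15988816-15989115, + strand): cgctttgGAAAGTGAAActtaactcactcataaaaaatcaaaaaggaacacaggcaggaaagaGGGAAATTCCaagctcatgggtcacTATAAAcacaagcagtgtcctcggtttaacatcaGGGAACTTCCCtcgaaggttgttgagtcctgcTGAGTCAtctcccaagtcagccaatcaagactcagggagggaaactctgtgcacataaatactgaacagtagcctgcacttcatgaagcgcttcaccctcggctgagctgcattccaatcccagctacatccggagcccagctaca
Ccl20 (chr9:91836909-91837208, + strand): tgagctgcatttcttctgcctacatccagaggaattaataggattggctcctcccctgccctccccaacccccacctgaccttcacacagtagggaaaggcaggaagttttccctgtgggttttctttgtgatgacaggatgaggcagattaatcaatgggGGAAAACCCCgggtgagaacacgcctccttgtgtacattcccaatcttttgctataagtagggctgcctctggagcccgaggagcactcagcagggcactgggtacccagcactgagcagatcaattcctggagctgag
Cxcl12 (chr4:152060531-152060830, + strand): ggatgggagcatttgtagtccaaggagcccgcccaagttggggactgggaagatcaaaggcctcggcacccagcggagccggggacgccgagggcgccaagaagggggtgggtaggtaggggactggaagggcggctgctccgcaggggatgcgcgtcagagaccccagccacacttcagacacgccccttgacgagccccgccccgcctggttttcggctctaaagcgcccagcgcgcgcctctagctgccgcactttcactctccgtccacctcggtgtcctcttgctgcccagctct
Cxcl16 (chr10:55669901-55670200, - strand): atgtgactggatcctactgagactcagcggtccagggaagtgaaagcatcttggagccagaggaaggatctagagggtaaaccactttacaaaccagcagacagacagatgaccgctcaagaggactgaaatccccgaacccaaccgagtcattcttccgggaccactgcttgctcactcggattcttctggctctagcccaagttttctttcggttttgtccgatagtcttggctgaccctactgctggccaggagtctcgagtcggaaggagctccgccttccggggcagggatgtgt
In the Cxcl1 window the capitals are a sense and an antisense match to the NF-kappaB consensus that overlap, from -84 to -74 relative to the start. Cxcl2 also had overlapping matches, from -74 to -64, the first sense and the second, GGGATTTCCC, fitting the consensus on both strands. Cxcl10 had an ISRE match from -243 to -234, NF-kappaB matches from -187 to -178 and from -128 to -118, a TATAAA match from -162 to -157 and an AP-1 match from -96 to -90. Ccl20 had 1 antisense NF-kappaB match, from -89 to -80. Ccl7, the chemokine below the floor, also had an NF-kappaB match, from -59 to -50, besides an AP-1 match from -73 to -67 and a TATAAA match from -34 to -29. The letters of these 4 motifs are not in the Cxcl12 and Cxcl16 windows. The NF-kappaB consensus was found in 5 of the 7 windows and in 7.51% of all 33469 promoters in the table. AP-1 was found in 7.33% of all promoters, ISRE in 3.92% and TATAAA in 14.2%. A match is a string of letters and says nothing of binding.

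**Figure D1:**
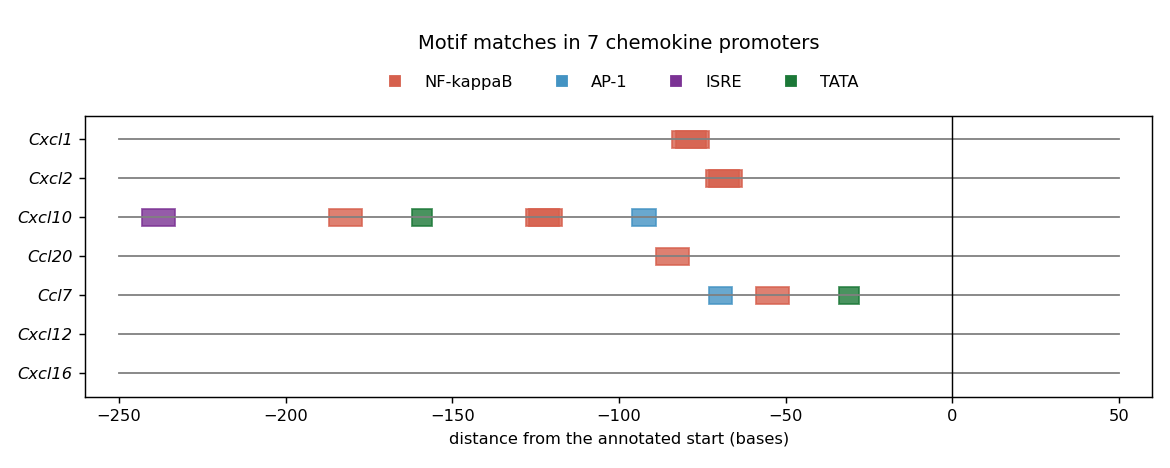
Motif matches in the promoters of 7 chemokines, by distance in bases from the annotated start (vertical line). Coloured boxes are matches to NF-kappaB, AP-1, ISRE and TATAAA. Cxcl1, Cxcl2, Cxcl10, Ccl20 and Ccl7 hold NF-kappaB matches, and the Cxcl12 and Cxcl16 windows hold no box.

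The arrays had median log2 values between 4.50 and 4.54. Poly-A controls, bacterial transcripts spiked into the RNA before labelling, were higher on the warm than on the cold array for all 24 probe sets, by a median of 1.25 on the log2 scale. Scaling to them lowers warm minus cold differences by about as much, with a median over all genes of -1.27 after scaling. That median was -1.35 for heparin and -1.18 for PPS against the cold array. After scaling to the 18 hybridisation controls, spiked in after labelling, the median over all genes was -0.45 in warm minus cold, 0.28 and -0.18 for heparin and PPS against warm, and 0.46 in heparin minus PPS. The 3' probe set of beta-actin exceeded the 5' one, a sign of RNA quality, on all arrays. On the log2 scale the excess was 3.39 on the heparin, 3.19 on the PPS, 3.22 on the warm and 2.79 on the cold array. For GAPDH it was 0.72 on the heparin, 0.81 on the PPS, 0.84 on the warm and 0.60 on the cold array. The cold array was lowest for both, while the highest array differed. RNA quality and warm perfusion cannot be told apart in comparisons with the cold array. All 12 kidney epithelial markers with a named probe set were above the floor, among them Umod of the thick ascending limb and Lrp2 of the proximal tubule, as the label of the tissue says.

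The neutrophil attractants Cxcl1 and Cxcl2 were below the floor on the cold array and far above it on the warm array. Cxcl1 had a log2 value of 7.64 on the heparin array, 7.01 on the PPS array, 10.05 on the warm array and 2.34 on the cold array. Cxcl2 had 7.89 with heparin, 5.67 with PPS, 9.30 on the warm array and 2.23 on the cold array. The warm array was thus highest for both, and both supplements lay between warm and cold. Warm over cold was at least 46.6-fold for Cxcl1 and at least 27.5-fold for Cxcl2, lower bounds computed against the floor. With heparin, Cxcl1 stood at 18.8% of its warm level on the linear scale and Cxcl2 at 37.7%. The PPS levels were 12.1% of warm for Cxcl1 and 8.12% for Cxcl2. Ranked from the most negative difference, Cxcl2 was number 3 and Cxcl1 number 4 in PPS minus warm, among 9238 genes above the floor on both arrays. In heparin minus warm, Cxcl1 was number 10 and Cxcl2 number 50 of 9228 genes.

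The macrophage inflammatory proteins Ccl3 and Ccl4, which attract monocytes and T cells, followed a like order. Ccl3 had log2 values of 7.13 on the heparin, 5.89 on the PPS, 8.24 on the warm and 3.83 on the cold array. For Ccl4 the values were 7.47 with heparin, 6.75 with PPS, 8.88 on the warm and 4.44 on the cold array, the last just below the floor. Only on the cold array were these genes below the floor, so the warm over cold folds, at least 13.2-fold and at least 20.6-fold, are bounds. Relative to the warm array, Ccl3 was 2.17-fold lower with heparin and 5.10-fold lower with PPS. Ccl4 was 2.65-fold lower with heparin and 4.38-fold lower with PPS.

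Ccl2, the main attractant of monocytes through Ccr2, differed from the genes above in being well above the floor on the cold array. Its log2 values were 8.03 on the heparin, 7.88 on the PPS, 9.03 on the warm and 8.48 on the cold array. Warm exceeded cold by 0.55, less than 2-fold, and with the arrays scaled to the poly-A controls the difference turned to -0.72. With heparin it was 2.002-fold lower than on the warm array, at the 2-fold limit, and with PPS 2.21-fold lower. Both supplemented arrays lay below the cold array as well, by -0.45 for heparin and -0.60 for PPS. Ccl7, a related monocyte attractant, had deposited values of 2.14 on the heparin, 2.13 on the PPS, 2.95 on the warm and 2.13 on the cold array. These lie below the floor, so no difference is given for it.

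Cxcl10 and Ccl20 attract lymphocytes, Cxcl10 through Cxcr3 as an interferon-inducible chemokine and Ccl20 through Ccr6. Cxcl10 had log2 values of 6.56 on the heparin, 5.93 on the PPS, 9.86 on the warm and 4.97 on the cold array. It was above the floor on all 4 arrays, so its 29.7-fold difference between warm and cold is measured on both sides, number 7 from the top among 9200 genes. Its level with heparin was 10.1% of the warm level, and with PPS 6.54%. By rank from the most negative difference, Cxcl10 was number 4 for heparin and number 2 for PPS against the warm array. Ccl20 had 4.95 on the heparin, 3.06 on the PPS, 8.69 on the warm and 2.87 on the cold array. It was below the floor with PPS and on the cold array, and just above it with heparin. Ccl20 was at least 18.0-fold higher on the warm than on the cold array, 13.4-fold lower with heparin than without a supplement, and at least 18.0-fold lower with PPS. In heparin minus warm it was number 2 from the bottom.

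Cxcl12, the ligand of Cxcr4 and Ackr3, and Cxcl16, a membrane-bound chemokine that also takes up oxidised lipoproteins, had the smallest ranges over the 4 arrays among the 9 detected genes. Cxcl12 had log2 values of 11.97 on the heparin, 12.16 on the PPS, 11.69 on the warm and 12.25 on the cold array. Here the warm array was lowest and the cold array highest, the reverse of Cxcl1. The other 2 probe sets of Cxcl12 gave -0.55 and -0.53 in warm minus cold, against -0.56 for the one used. For PPS minus warm the 3 probe sets gave 0.47, 0.28 and 0.53. For heparin minus warm they gave 0.28, -0.11 and 0.41, so the probe sets disagreed in sign. Cxcl16 had 11.67 on the heparin, 11.67 on the PPS, 11.54 on the warm and 11.93 on the cold array, with the warm array again lowest as deposited. Scaled to the hybridisation controls, PPS minus warm for Cxcl16 turned to -0.043. Warm minus cold was -0.39 for Cxcl16. Scaling to the poly-A controls made it -1.66, and that of Cxcl12 -1.83, both past 2-fold, beside a median of -1.27 over all genes. The 8 fibroblast and pericyte markers also had their lowest summed level on the warm array and their highest on the cold array, 12.00 with heparin, 12.54 with PPS, 11.73 on the warm and 12.81 on the cold array (log2 of the sum). Their part in the Cxcl12 values was not tested.

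**Figure D2:**
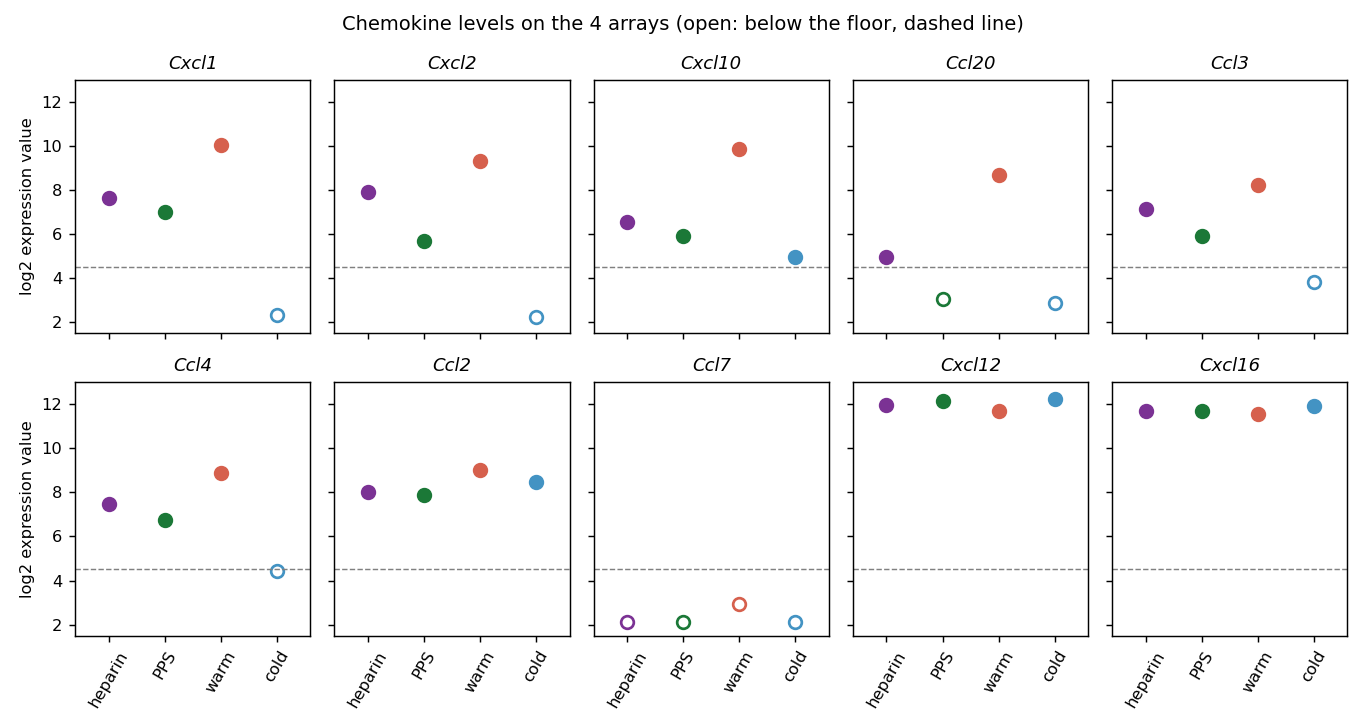
Log2 expression value of each of the 10 chemokines on the heparin, PPS, warm and cold arrays, with 1 point an array. Open points lie below the floor of 4.51 (dashed line). The warm array is highest for Cxcl1, Cxcl2, Cxcl10, Ccl20, Ccl3, Ccl4 and Ccl2, and, as deposited, lowest for Cxcl12 and Cxcl16.

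The comparison of warm with cold arrays addressed the step that stands in for reperfusion, 30 min with the warm oxygenated buffer. Of the 10 chemokines, 6 were higher on the warm array by 2-fold or more, 0 were lower, and Ccl2, Cxcl12 and Cxcl16 stayed within 2-fold. Among all 9393 analysed genes, 2.48% were higher and 1.16% lower by this size. The median log2 difference was 3.95 over the 10 chemokines, with Ccl7 at 0, and -0.0032 over all analysed genes. For 5 of the 6 genes the cold side was below the floor, and these 5 were counted as detected only through the perfused arrays. Cxcl10 is the 1 gene of the 6 measured on both sides at this floor, with its cold value near it. Scaled to the poly-A controls, 6 chemokines were higher and 2 lower, against 65 higher and 7689 lower genes of 9690 in all. Scaled to the hybridisation controls, 6 were higher and 1 lower, beside 116 higher and 429 lower of 9475 genes.

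The comparisons with the warm array addressed the supplements, which the study tested for anti-inflammatory properties. With heparin, 7 of the 10 chemokines were lower by 2-fold or more, where 1.48% of all genes were. With PPS, 7 were lower by this size, where 1.71% of all genes were. The 7 genes were Cxcl1, Cxcl2, Cxcl10, Ccl2, Ccl3, Ccl4 and Ccl20 in both comparisons, which share the warm array. The median over the 10 chemokines was -1.26 for heparin and -2.24 for PPS, with medians over all genes of 0. Ccl2 passed the limit with heparin by little, at 2.002-fold, and passed it under 6 of 9 other settings. The floors and probe set rules could not change this value, as Ccl2 has 1 probe set that lies above every floor used. Of the settings that could, it passed with poly-A scaling (-1.09). It did not pass with scaling to the hybridisation controls or reference genes, or with quantile normalization. With the arrays scaled to the hybridisation controls, 5 of 10 were lower with heparin by 2-fold or more, and Ccl2 (-0.72) and Ccl3 (-0.84) were not. That scaling also turned the split over all genes in heparin minus warm to 86 higher and 85 lower, against 36 and 139 as deposited.

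**Figure D3:**
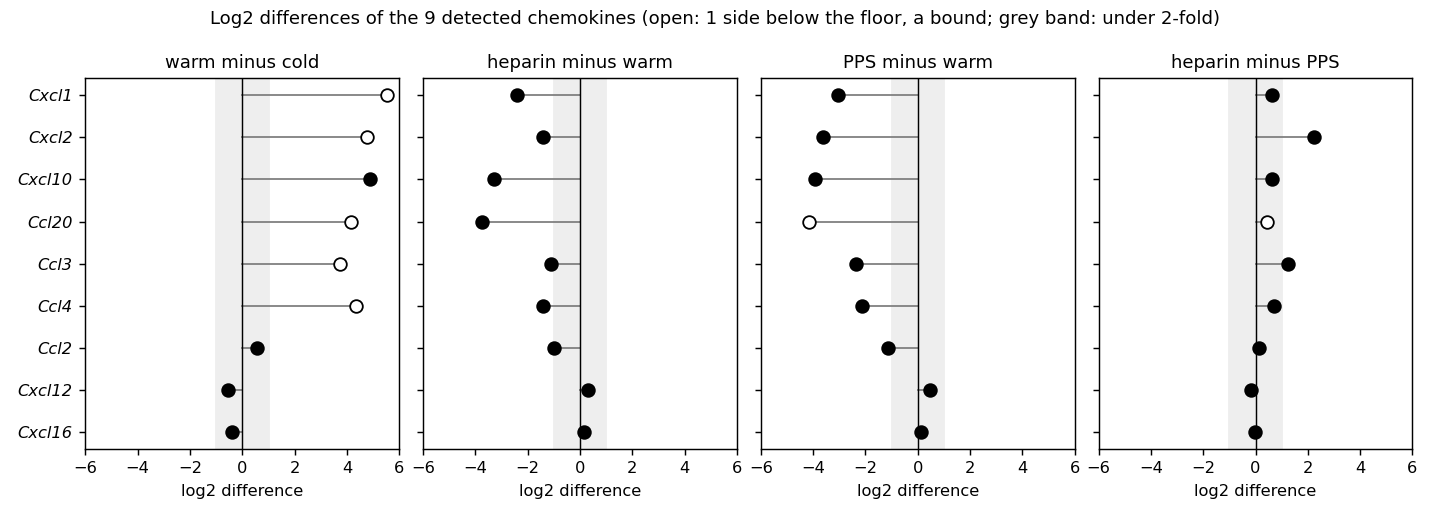
Log2 differences of the 9 detected chemokines in 4 comparisons, each between 2 arrays. Open points are bounds, with 1 side below the floor, and the grey band marks differences under 2-fold. In warm minus cold 6 genes lie to the right of the band, and in both comparisons of a supplement with the warm array 7 lie at or beyond its left edge.

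**Figure D4:**
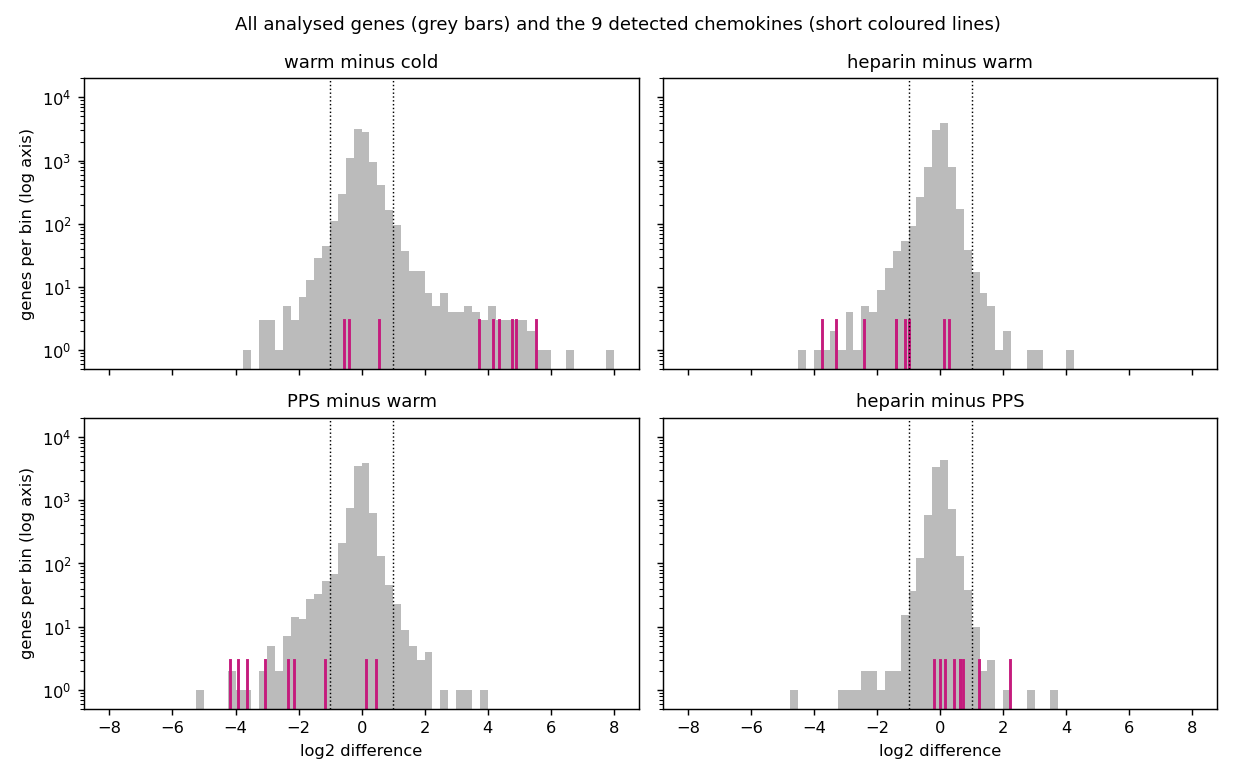
Number of genes by log2 difference in 4 comparisons, over 9393 analysed genes (grey bars, log axis), with the 9 detected chemokines as short coloured lines and the 2-fold limits dotted. Cxcl1, Cxcl2, Cxcl10, Ccl3, Ccl4 and Ccl20 sit in the right tail of warm minus cold and in the left tails of both comparisons of a supplement with the warm array, and Ccl2 only in the left tails.

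Heparin and PPS were given at the same 10 IU/ml, and the 9 detected chemokines were compared between them as 1 pair of groups. Cxcl2 was 4.65-fold higher with heparin than with PPS and was number 2 from the top among 9239 genes. Ccl3 was 2.35-fold higher with heparin and was number 7. These 2 of 10 chemokines passed 2-fold, where 0.490% of all genes did in either direction. Ccl4 (0.73), Cxcl1 (0.64) and Cxcl10 (0.63) had smaller positive log2 differences in heparin minus PPS. Ccl2 differed by 0.14 (-0.03 when scaled to the poly-A controls), Cxcl12 by -0.19 and Cxcl16 by -0.0011 (0.27 and 0.46 when scaled to the hybridisation controls). Ccl20 was 4.95 with heparin and below the floor with PPS, which gives a bound of 0.43. The spread of this comparison over all genes was 0.24 (SD across genes, which are not replicates), and there is no interval for any of these differences. Scaled to the hybridisation controls, which differed by a median of -0.47 between these arrays, 5 chemokines were past 2-fold and all genes split into 142 higher and 11 lower, against 18 and 28 as deposited.

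Set against the cold array, chemokines on the supplemented arrays were still high in part. With heparin, 5 of the 10 were higher than on the cold array by 2-fold or more, where 1.17% of all genes were. They were Cxcl2 (at least 10.4-fold), Cxcl1 (at least 8.74-fold), Ccl4 (at least 7.77-fold), Ccl3 (at least 6.12-fold) and Cxcl10 (3.01-fold). With PPS, 4 were higher by this size, where 1.03% of all genes were. These were Cxcl1 (at least 5.62-fold), Ccl4 (at least 4.70-fold), Ccl3 (at least 2.60-fold) and Cxcl2 (at least 2.23-fold), while Cxcl10 was 1.95-fold higher, a log2 difference of 0.96 that turned to -0.22 when scaled to the poly-A controls. Ccl20 was below the floor on both the PPS and the cold array. With the floor at the 60th percentile of all values, 1 chemokine, Cxcl2, was higher by this size with heparin and 0 with PPS. Among the 8200 genes above that floor, 64 were higher with heparin and 49 with PPS. Scaled to the poly-A controls, 4 chemokines were higher and 3 lower with heparin, beside 32 higher and 8358 lower of 9690 genes. With PPS, 2 were higher and 3 lower under that scaling, beside 23 higher and 7428 lower genes. All these comparisons share the cold array with warm minus cold.

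Other chemokines were measured beside these. Of 25 listed, 21 had a named probe set and 7 were above the floor. Cxcl11, an interferon-inducible ligand of Cxcr3 like Cxcl10, had log2 values of 8.25 on the heparin, 8.37 on the PPS, 9.10 on the warm and 7.995 on the cold array. Its warm minus cold difference of 1.10 was the 1 of 7 past 2-fold, where 2.48% of all genes were higher by this size. The difference turned to -0.17 when scaled to the poly-A controls. That scaling gave 0 higher and 5 lower of the 7, with a median of -1.35. Over all 9690 genes it gave 65 higher and 7689 lower, with a median of -1.27. Cxcl13, which attracts B cells through Cxcr5, had 7.61 with heparin, 7.50 with PPS, 8.94 on the warm and 9.31 on the cold array. Against the warm array it was the 1 of 7 past 2-fold, at -1.33 for heparin and -1.44 for PPS. Of all genes, 1.48% were lower with heparin and 1.71% with PPS by this size. Cxcl13 was lower with both supplements than on the cold array too (-1.70 for heparin and -1.81 for PPS). The neutrophil attractants Cxcl3 and Cxcl6, the T cell attractant Ccl5 and Cxcl9 were below the floor on all 4 arrays.

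Most chemokine receptors were not detected. Of 23 listed, 17 had a named probe set and 5 were above the floor, while Cxcr2, Ccr1, Ccr2, Cxcr3 and Ccr6, receptors of the inducible chemokines above, were below it on all arrays. Cxcr4, the receptor of Cxcl12, had log2 values of 6.38 on the heparin, 6.57 on the PPS, 8.16 on the warm and 4.07 on the cold array. Its 3 probe sets each had the cold side below the floor and gave bounds of 3.65, 2.97 and 2.60 for warm over cold. Against the warm array they gave -1.78, -2.14 and -1.48 with heparin, and -1.59, -2.52 and -1.73 with PPS. Ccrl2, a receptor-like protein that binds chemerin and does not signal to move cells, had 4.94 with heparin, 3.64 with PPS, 6.49 on the warm and 2.58 on the cold array. Ackr3, a scavenger of Cxcl12, had 11.39 with heparin, 11.44 with PPS, 11.67 on the warm and 10.97 on the cold array, within 2-fold throughout. Its warm minus cold difference of 0.70 turned to -0.57 when scaled to the poly-A controls. Of the 5 receptors above the floor, 2, Cxcr4 and Ccrl2, were higher on the warm than on the cold array by 2-fold or more, where 2.48% of all genes were. The same 2 were lower by this size with each supplement than on the warm array, where 1.48% (heparin) and 1.71% (PPS) of all genes were. Both were below the floor on the cold array, and Ccrl2 also with PPS, so they counted as detected only through arrays with warm perfusion.

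**Figure D5:**
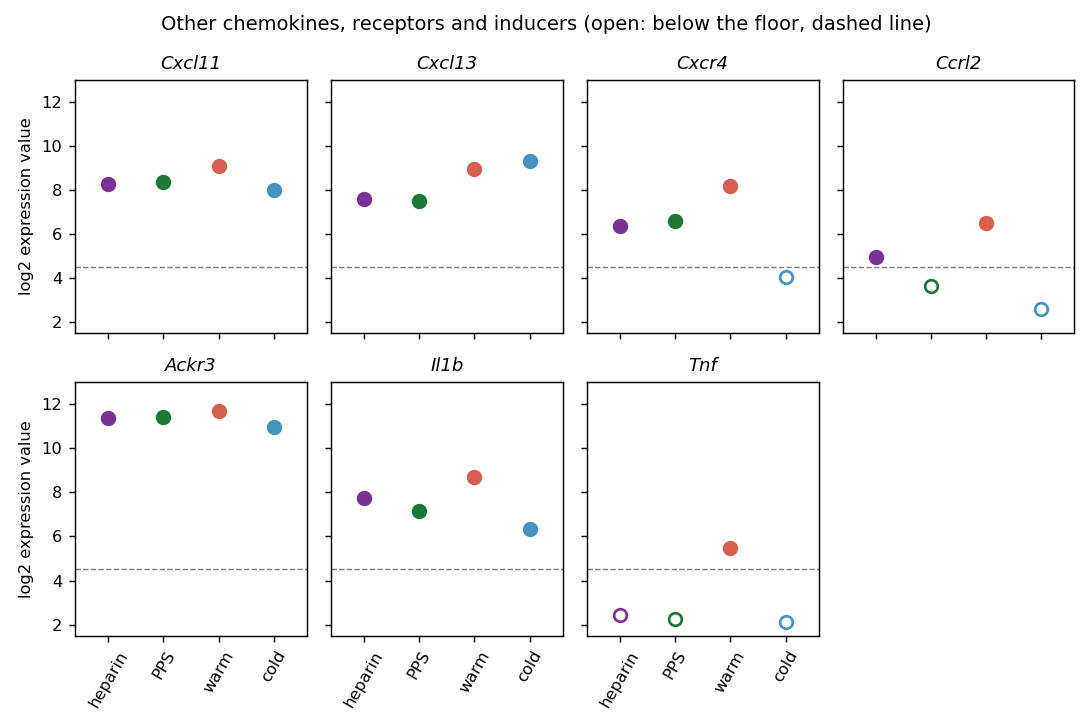
Log2 expression values of other chemokines (Cxcl11, Cxcl13), receptors (Cxcr4, Ccrl2, Ackr3) and inducers (Il1b, Tnf) on the heparin, PPS, warm and cold arrays, with 1 point an array and open points below the floor (dashed line). The warm array is highest for each gene shown except Cxcl13, for which the cold array is highest.

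Signals that switch on chemokine genes were measured in part. Of 13 inducers and sensors, 8 were above the floor. In warm minus cold 1 of them, Il1b, passed 2-fold, where 2.48% of all genes were higher by this size. With poly-A scaling 1 was higher and 5 lower, beside 65 higher and 7689 lower of 9690 genes. The median was -1.20, against -1.27 over all genes. Il1b, which encodes interleukin-1 beta, had log2 values of 7.75 on the heparin, 7.14 on the PPS, 8.71 on the warm and 6.32 on the cold array. It was 5.26-fold higher on the warm than on the cold array and 2.98-fold lower with PPS than on the warm array, while heparin minus warm was -0.96. Tnf, another inducer, was above the floor on the warm array alone, at 5.46, with 2.44 on the heparin, 2.26 on the PPS and 2.12 on the cold array. A second Tnf probe set was at the lowest value of the table, 2.11, on all 4 arrays. Il6, Il1a and Tlr4 were not detected.

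Among 14 transcription factors and inhibitors at chemokine genes, 12 were above the floor. In warm minus cold 7 of them were higher by 2-fold or more and 0 were lower, with a median of 1.67. Of all genes, 2.48% were higher and 1.16% lower. After poly-A scaling, 5 were higher and 3 lower, with a median of 0.40, beside 65 higher and 7689 lower of 9690 genes. The largest differences were those of Fos (7.77), an AP-1 subunit, Nfkbiz (5.29), a nuclear regulator of NF-kappaB, Irf1 (3.49), an interferon regulatory factor, and Jun (3.43). With heparin, 2 of the 12 were lower than on the warm array by this size, Irf1 (-2.05) and Nfkbiz (-1.44), and with PPS 7 were, led by Irf1 (-2.28), Nfkbiz (-2.17), Jun (-1.61) and Nfkbia (-1.48), the inhibitor IkappaB-alpha. Of all genes, 1.48% were lower with heparin and 1.71% with PPS by this size. The DNA-binding subunits Rela and Nfkb1 and the factor Irf3 stayed within 2-fold in all 6 comparisons as deposited. Scaled to the poly-A controls, they were lower on the warm than on the cold array by -1.15, -1.61 and -1.30. The median over all genes was -1.27 under that scaling, with 7689 of 9690 genes lower by 2-fold or more.

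Markers of leukocytes that could carry chemokine messages were looked at beside these values. Of 12 neutrophil markers, 6 had a named probe set, and all 6 were below the floor on every array, S100a8, S100a9 and Csf3r among them. The 14 monocyte and macrophage markers had 8 above the floor, and 0 of these 8 passed 2-fold in any of the 6 comparisons as deposited. Against the warm array their median was -0.27 for heparin and -0.16 for PPS. In warm minus cold it was 0.15, or -1.12 when scaled to the poly-A controls, where the median over all genes was -1.27. Their summed level (log2) was 13.31 with heparin, 13.41 with PPS, 13.62 on the warm and 13.59 on the cold array. Cd68, Cd163 and Itgam, defining markers of these cells, were below the floor. Of 10 lymphocyte markers with a named probe set, 1, Cd3e, was above the floor, at 5.18 with heparin, 5.36 with PPS, 5.31 on the warm and 5.31 on the cold array. The 9 endothelial markers had medians of -0.21 for heparin and -0.20 for PPS, each against the warm array, and of 0.33 in warm minus cold, or -0.94 when scaled to the poly-A controls.

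Genes outside the chemokine lists were ranked by how close their 3 differences came to the median profile of the 9 detected chemokines. The differences were that of warm from cold, and those of heparin and of PPS from warm. The median profile was 4.17, -1.40 and -2.35. Its 4.17 is the bound of Ccl20, set by the floor. With the floor at the 60th percentile this median was 1.95, and with no floor 4.43. The ranking was made with the floor of 4.51 only. The 5 closest by Euclidean distance over these 4 arrays were the early-response genes Ier2 (distance 0.26), Csrnp1 (0.28), Junb (0.38), Zfp36 (0.44) and Klf6 (0.46). Ier2 had log2 values of 9.62 on the heparin, 8.83 on the PPS, 11.11 on the warm and 6.71 on the cold array. Zfp36, which encodes a protein that speeds the decay of cytokine messages, had 11.42 with heparin, 10.91 with PPS, 13.09 on the warm and 8.60 on the cold array.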

How the data were processed

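Expression was measured on 4 Affymetrix rat arrays, 1 a group, each with 6 ug of RNA pooled from 3 kidneys, per the labels' protocols. The deposited log2 values per probe set were made by the authors with GCRMA, which corrects background, normalizes and summarises probe intensities, per the submitters' processing notes. Its version was not stated. That the scale is log2 was inferred from the range, 2.11 to 16.4. GCRMA makes the arrays' distributions alike, so a change in total messenger RNA would not be seen. The number of arrays limits the precision.

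Of 31099 probe sets, 57 are controls. The annotation gives 1 symbol to 20832 and several to 436, which were not used. Of the 20826 that are not controls, 20758 were matched to RefSeq (GRCr8) by Entrez identifier and named from it. For the 4525 genes with several probe sets, that with the highest mean was used. Values under the 50th percentile of the table (4.51) were raised to it, and a difference with 1 side there is a bound. The size limit for a change was 2-fold. With 1 array a group no test was made. The procedure was tested on simulated data.

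The genes, lists and the rule for named genes (every chemokine studied, up to 4 genes past 2-fold a list and comparison, and the 5 most alike genes) were chosen with earlier results of these data known. Genes singled out beyond the rule, among them Tnf, Ackr3, Rela, Nfkb1 and Irf3, were named after their values were seen. Alternatives were 3 other floors, 2 other probe set rules, 2 other size limits, 3 scalings and quantile normalization. Python 3.11.15, pandas 2.3.3 and matplotlib 3.10.9 were used.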

Additional observations from a re-analysis of the deposited data

Results flagged for a closer look

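For 1 of the 3 probe sets of Cxcl12, heparin and PPS went opposite ways against the warm array. That probe set gave log2 differences from warm of -0.11 for heparin and 0.28 for PPS, with log2 values of 7.26 on the heparin, 7.65 on the PPS and 7.37 on the warm array. The other 2 probe sets were positive in both comparisons. The difference was not tested, as each group is 1 array.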

How the results depend on the processing

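Of 66 counts of chemokines under the alternatives, 57 were within 1.5 times the value given above and 9 were not. A floor at the 60th percentile gave 1 in heparin minus PPS, beside 6 higher and 14 lower of 8200 genes. Against the cold array it gave 1 for heparin and 0 for PPS, since more values are raised to the floor. A size limit of 1.5-fold gave 5 in heparin minus PPS, beside 121 higher and 131 lower of all 9393 genes. A limit of 3-fold gave 3 in heparin minus warm, 1 in heparin minus PPS and 2 in PPS minus cold. Of all 9393 genes, that limit gave 41 lower in heparin minus warm and 38 higher in PPS minus cold. In heparin minus PPS it gave 4 higher and 10 lower. Scaling to the poly-A controls gave 2 in PPS minus cold, and scaling to the hybridisation controls gave 5 in heparin minus PPS; the cause was not tested. No difference of a chemokine past 2-fold changed sign under any of these alternatives. Only the scalings and quantile normalization could have changed one. Floors and size limits cannot turn a sign, and the chemokines past 2-fold have 1 probe set each. Some differences fell to 0 at the lowest, those of Cxcl2 and Ccl3 in PPS minus cold and of Cxcl10 in heparin minus cold. Over all genes, the hybridisation controls split PPS minus cold into 39 higher and 765 lower, against 97 and 74 as deposited. The poly-A controls split heparin minus cold into 32 and 8358, against 110 and 86, PPS minus cold into 23 and 7428, and heparin minus PPS into 10 and 49. No paired analysis was possible because each group is 1 array. Chemokines low on the cold array are limited by signal over background: their folds are bounds that move with the floor, as for Cxcl1, whose warm minus cold difference ran from 3.32 to 7.71 over the settings.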

Other observations

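Genes that process chemokine messages and proteins formed a list of 8, all above the floor. Zfp36 and Zc3h12a, which both shorten the life of cytokine messages, were higher on the warm than on the cold array by 4.48 and 3.24 on the log2 scale, and lower with heparin (-1.67 and -1.41) and with PPS (-2.18 and -1.88) than on the warm array. Mmp9, a matrix protease that can trim chemokines, had log2 values of 6.08 on the heparin, 5.21 on the PPS, 4.86 on the warm and 3.25 on the cold array, so the heparin array was highest. Heparin minus warm was 1.22 for Mmp9, against a size limit of 1. Adam10 and Adam17, proteases that release Cxcl16 from the cell surface, and Dpp4, which cuts Cxcl10 and Cxcl12, stayed within 2-fold in all 6 comparisons as deposited. Scaled to the poly-A controls, these 3 were lower on the warm than on the cold array, by -1.87, -1.28 and -1.56. The median over all genes was -1.27 under that scaling.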
